A study of Mus musculus with 8 samples.

Results

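The Hox genes of the clusters Hoxa, Hoxb, Hoxc and Hoxd were described in mouse kidney tumors and control kidneys. Members were all array probes whose gene symbol in the platform annotation begins with Hox, a cluster letter and a number, without use of any measured value. This gave 50 of 25697 probes, for 38 of the array's 16593 named genes. Hoxa is represented by 17 probes for 10 genes, Hoxb by 13 probes for 10 genes, Hoxc by 11 probes for 9 genes and Hoxd by 9 probes for 9 genes, and 9 of the genes have more than 1 probe.

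Total RNA was measured on single-colour bead arrays, 1 array per sample. The study compared 4 mouse kidney tumors, which the labels describe as Wilms tumors derived through Lin28, with 4 normal kidneys. Tumor 1 and control 1 came from animals aged 5 weeks, and tumors 2 to 4 and controls 2 to 4 from animals aged 4 months. Strain, sex, the genotype of either group, and the promoter or cell type through which Lin28 was raised are unknown here. Lin28 binds RNA and keeps the let-7 family of microRNAs from maturing. Wilms tumors arise in children and hold cells like those of the embryonic kidney.

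Hox genes encode homeodomain transcription factors that tell cells their position along the body axis. Genes at the 3′ end of a cluster, with low numbers, act in the head and neck, and genes at the 5′ end, with high numbers, act in the lumbar, sacral and genital region and in the distal limb. Genes with the same number in different clusters are paralogs that arose by duplication of the whole cluster and often replace each other. In the kidney, the paralogs Hoxa11, Hoxc11 and Hoxd11 are needed in the metanephric mesenchyme to switch on Six2 and Gdnf, the paralogs numbered 10 act in the stroma, and Hoxb7 is active in the ureteric bud and collecting duct.

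Values are probe intensities from which the authors had subtracted background and which they had scaled to the same mean on every array, so many lie near or below 0. A probe was called above background on an array where it exceeded 3 times the noise of that array, estimated from the size of its values below 0. This limit was 27.6 on tumor 1, 14.2, 11.1 and 12.5 on tumors 2 to 4, and from 10.7 to 16.5 on the controls, so that dim probes are missed more easily on tumor 1. The number of arrays, 4 a group, limits the precision. The labelled tissue was borne out in the controls, where markers of the proximal tubule summed to between 30126 and 52094 intensity units. These markers summed to 27319 in tumor 1 and to between 758 and 2192 in tumors 2 to 4, so tumor 1 stands apart from the other tumors in its content of tubule markers. All 6 proximal tubule markers were lower in tumors (12.2% of named genes). All 6 nephron progenitor markers and all 7 stromal markers were higher (31.9%), each gene by its brightest tested probe. The exceptions were Osr1 with 3 of the 4 other normalizations and Pdgfra with median scaling, which then missed the threshold. The stromal markers summed to between 7611 and 19200 in tumors and to between 1075 and 3114 in controls. The nephron progenitor markers summed to between 705 and 2652 in tumors and to between 68.7 and 376 in controls. With no filter on dim probes 4 of the 6 tubule markers were called lower (6.07% of named genes). In that fit 5 of the 6 progenitor and 6 of the 7 stromal markers were called higher (18.0%). With the filter, 4 of the progenitor markers and 1 stromal marker had passed through tumors alone. Of markers of other cells that tissue could carry, Ptprc for leukocytes, Myod1 for skeletal muscle and Star and Cyp11b1 for adrenal cortex were at or under background on all 8 arrays. On the same lists Cd79a was above background in 1 control, Cd3e in 2 controls, Myog in 3 tumors and 2 controls, Acta1 in 1 tumor and Cyp11a1 in 1 tumor. Cd3e, Myog and Cyp11a1 were tested and not called, while Cd79a and Acta1 were too dim to be tested. Des, a filament protein of muscle of all kinds, rose by 2.45 ± 0.35 log2 units (limma adjusted p = 0.0012). The 4 skeletal muscle markers, mostly through Des, summed to between 226.8 and 543 in tumors and to between 38.8 and 99 in controls, the 3 leukocyte markers to between 12.2 and 24.2 in tumors and to between 1.7 and 35.2 in controls, and the 3 adrenal markers to between 5.6 and 34.2 in tumors and to between 3.8 and 8.4 in controls. Adipoq, a marker of fat, read 1647 in tumor 2 and at most 180 on the other arrays. Xist read between 155 and 301 in tumors and between 2.2 and 34.8 in controls, and Kdm5d of the Y chromosome was at or under background in all 4 tumors and in control 2 and between 44.7 and 53.7 in the other controls. Uty, also Y-linked, had 24.8, 7.5, 12.4 and 25.1 in tumors, against 27.8, 10.3, 40 and 40.9 in controls. In controls it read as Kdm5d did, under background in control 2 alone. Unlike Kdm5d, it was above background in 2 tumors. Its change did not pass (-0.43, limma adjusted p = 0.281), but was called lower with cyclic loess normalization (-0.89, adjusted p = 0.0387). Kdm5d was lower (-1.32, limma adjusted p = 0.0369), but missed the threshold with no filter (adjusted p = 0.0973) and with normexp correction and quantile normalization (adjusted p = 0.0792). Eif2s3y was at or under background on all arrays. By Xist and Kdm5d, sex cannot be told apart from group for most samples. The part of any of these differences in the Hox results was not tested. In whole tissue, fewer cells of a type and less RNA per cell cannot be told apart.

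Many Hox genes were at or under background in both groups. Of the 50 probes, 18 (36%) were above background on all 8 arrays, where 37.3% of all probes were, and 20 (40%) on no array, where 37.8% of all probes were, so both shares are near those of the array. On all 4 tumors 23 probes were above background (42.7% of all probes), and on all 4 controls 19 (41.6% of all probes). The single arrays of tumors had 23, 27, 29 and 29 Hox probes above background, and those of controls had 20, 23, 20 and 22. No probe of 13 genes was above background anywhere: Hoxa3, Hoxa6, Hoxb1, Hoxb8, Hoxb13, Hoxc5, Hoxc8, Hoxc11, Hoxc12, Hoxc13, Hoxd1, Hoxd11 and Hoxd13. By paralog number, 9 of 12 probes for paralogs 11 to 13 were above background on no array. The same held for 2 of 11 probes for paralogs 9 and 10, 4 of 15 for paralogs 4 to 8 and 5 of 12 for paralogs 1 to 3. A probe at background gives a bound only, and a gene with 1 such probe may still be transcribed outside the probe's reach.

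Tumors were compared with controls on the scale log2(intensity + 16), with values below 0 set to 0, which understates the change of dim probes. Each probe was fitted by itself with limma over the whole array, and the dimmest probes, up to the 40th percentile of mean log2 values, were dropped. This left 30 Hox probes for 25 genes among 15418 tested probes, and 20 Hox probes were not tested. In tumors 17 of the 30 probes, for 15 genes, rose (limma adjusted p under 0.05). The background is 31.0% of all tested probes. No Hox probe fell, where 11.5% of all tested probes did, and 1 Hox probe, for Hoxa7, was lower at an unadjusted p under 0.05. Every tumor lay above every control for 19 of the 30 probes (29.4% of all tested probes), and every tumor lay below every control for 1, again Hoxa7 (9.48%). Of the 30 probes, 6 passed the filter only through their level in tumors and so had to differ: all 3 for Hoxb3, the dimmer tested one for Hoxa2, and those for Hoxa11 and Hoxd12. These counts therefore give no support by themselves, and for the 6 probes the adjusted p below is that of the fit with no filter. With no filter, 14 of all 50 Hox probes (28%) were called higher, where 16.6% of all probes were. Of the 18 Hox probes above background on all 8 arrays 9 (50%) were called higher, where 31.8% of such probes on the array were, and none was called lower (14.3%).

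On the authors' scale the median tested probe was 0.33 log2 units higher in tumors, and other scalings moved that level. With cyclic loess normalization the median of all tested probes was -0.03, and 14 Hox probes were higher and 1 lower, where 17.1% and 18.6% of all tested probes were. With quantile normalization 15 were higher and 1 lower (19.0% and 16.6%). The 1 fall in both was Hoxa7. Changes below are fitted values on the authors' scale. The 17 called probes, some of which had passed the filter through tumors alone, were above 0 in every alternative in which they were tested.

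**Figure D1:**
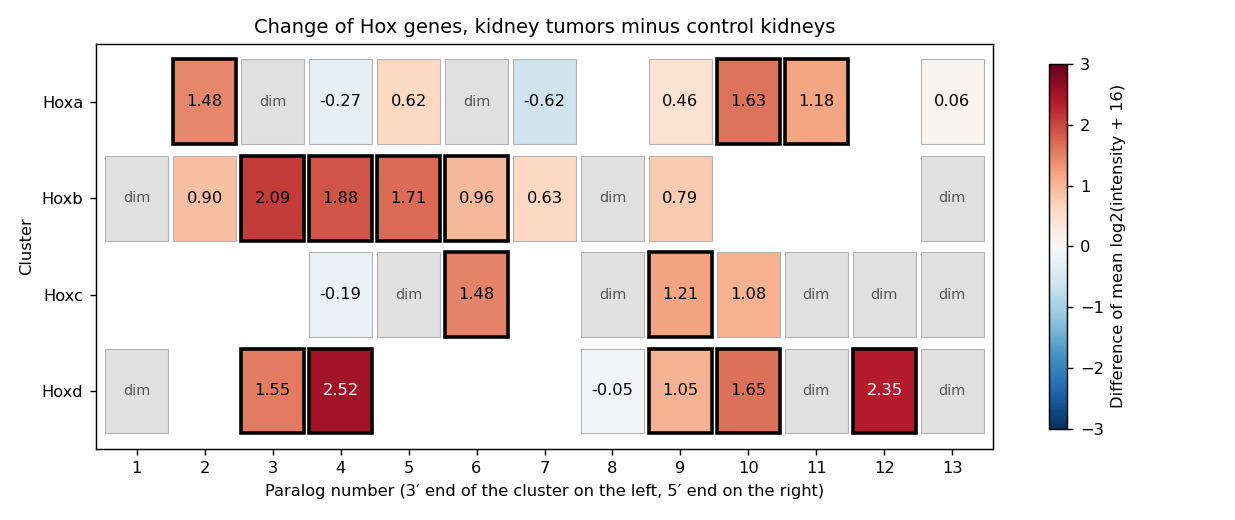
Change of each Hox gene in tumors relative to controls, arranged by cluster (rows) and paralog number (columns), as the difference of mean log2(intensity + 16), n = 4 a group. A gene with several tested probes is shown by the one with the highest mean, a thick frame marks an adjusted p under 0.05 for the probe shown, "dim" marks genes whose probes were all too dim to test, and blank positions have no gene or no probe. Values run from -0.62 for Hoxa7 to 2.52 for Hoxd4, and 14 of the 25 tested genes are framed, where 31.9% of named genes rose by the same rule. Of the framed genes, Hoxb3, Hoxa11 and Hoxd12 had passed the filter through tumors alone and are framed by the fit with the filter. A second, dimmer probe for Hoxc10 also passed.

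In the Hoxd cluster 5 of the 6 tested genes, each with 1 probe, rose, where 31.0% of all tested probes did. Of these 5, Hoxd12 had passed the filter through tumors alone. Hoxd4, which patterns the neck vertebrae, had 386, 195, 331.5 and 534 intensity units in tumors 1 to 4, against 33.2, 94.2, 23 and 55.2 in controls 1 to 4. All tumors were above all controls, of which control 2 was the highest and tumor 2 was the nearest. The change was 2.52 ± 0.38 log2 units (SE, n = 4 a group), or 5.73-fold (limma adjusted p = 0.00162). Hoxd3, its 3′ neighbour, which shapes the first vertebrae, had 126, 48.7, 133 and 135 in tumors, against 18.4, 43.8, 10.6 and 35.1 in controls. Tumor 2 was low and close to control 2, but the groups did not overlap. Hoxd3 rose by 1.55 ± 0.36 log2 units (limma adjusted p = 0.00867).

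At the 5′ side of the cluster, Hoxd10, which patterns lumbar motor neurons and the hindlimb and is one of the paralogs that act in kidney stroma, had 1184, 1406, 1431 and 2312 in tumors, against 299, 878, 314 and 626 in controls. Controls 2 and 4 were above controls 1 and 3, and all were below the lowest tumor. Hoxd10 rose by 1.65 ± 0.37 log2 units, or 3.13-fold (limma adjusted p = 0.00827). Hoxd9, which acts in the hindlimb and lumbar spine, averaged 649 ± 86.1 in tumors and 329.6 ± 157 (SD, n = 4) in controls, with no overlap. The difference for Hoxd9 was 1.05 ± 0.32 (limma adjusted p = 0.0266). The call for Hoxd9 was lost when any 1 of tumors 2, 3 and 4 or of controls 1 and 3 was omitted (change 0.82 to 1.06, adjusted p = 0.0507 to 0.0778), on the arrays of 4 months alone (0.91, adjusted p = 0.0535), with no filter (adjusted p = 0.0639), with cyclic loess (0.76, adjusted p = 0.0691) and with median scaling (0.87, adjusted p = 0.101).

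Hoxd12, which acts with Hoxd13 in digits and the genital bud, read 46.7, 22.8, 77.8 and 202 in tumors, against 1.9, -0.9, -1.5 and -3.2 in controls. All 4 tumors were above background and no control was. The difference was at least 5.07-fold, taking for each control the higher of its signal and its limit (limma adjusted p = 0.0181 with no filter). The fitted change of 2.35 log2 units was 3.97 with 4 added in place of 16. Without tumor 4, the highest array, it was 1.89. Between Hoxd12 and Hoxd10, Hoxd11 stayed at or under background on all arrays, with 7.5, 2.9, 6 and -2.1 in tumors and 2.5, 7.4, 5.1 and 4.6 in controls. Hoxd13 and Hoxd1, at the ends of the cluster, were likewise under the limit on all 8 arrays. Hoxd8 was bright in both groups, with 1032, 578, 1285 and 748 in tumors and 540.1, 1068, 805 and 1419 in controls. The groups overlapped and the change was -0.05 ± 0.34 (limma adjusted p = 0.92), and its sign turned in 5 of the 23 alternatives.

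The start regions of Hoxd genes are shown because neighbours within this cluster differed: Hoxd12 and Hoxd10 were higher in tumors while Hoxd11, between them, was not detected, and Hoxd4 was higher as well. Each sequence holds 300 bases around an annotated start, mostly before it, from RefSeq (GRCm38.p6), 5′ to 3′ on the plus strand, and Hoxd11 has 2 annotated starts. Capitals mark matches, on either strand, to TGATNNAT (a joint site of Pbx and Hox proteins), TGACAG (a site of Meis proteins), TATAAA (the TATA box) or TAATTA (a common homeodomain site).
Hoxd12 at chr2:74674763-74675062: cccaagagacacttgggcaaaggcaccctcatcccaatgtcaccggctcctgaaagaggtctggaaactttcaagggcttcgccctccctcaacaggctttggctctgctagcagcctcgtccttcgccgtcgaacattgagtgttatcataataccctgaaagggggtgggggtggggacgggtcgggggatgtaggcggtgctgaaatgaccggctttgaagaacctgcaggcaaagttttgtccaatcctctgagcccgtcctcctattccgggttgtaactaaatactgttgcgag
Hoxd11, first start, at chr2:74679308-74679607: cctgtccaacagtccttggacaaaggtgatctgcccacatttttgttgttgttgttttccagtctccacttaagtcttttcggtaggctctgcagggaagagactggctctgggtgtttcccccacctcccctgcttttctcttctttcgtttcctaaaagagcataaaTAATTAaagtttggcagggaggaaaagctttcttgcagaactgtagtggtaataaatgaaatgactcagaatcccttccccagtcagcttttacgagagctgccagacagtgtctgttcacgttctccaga
Hoxd11, second start, at chr2:74682073-74682372: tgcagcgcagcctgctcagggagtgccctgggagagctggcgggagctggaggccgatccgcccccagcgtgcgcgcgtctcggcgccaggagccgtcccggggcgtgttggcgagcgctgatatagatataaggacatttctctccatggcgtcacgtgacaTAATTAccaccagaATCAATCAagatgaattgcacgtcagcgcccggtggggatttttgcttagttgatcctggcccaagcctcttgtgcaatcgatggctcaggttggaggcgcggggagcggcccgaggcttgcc
Hoxd10 at chr2:74691641-74691940: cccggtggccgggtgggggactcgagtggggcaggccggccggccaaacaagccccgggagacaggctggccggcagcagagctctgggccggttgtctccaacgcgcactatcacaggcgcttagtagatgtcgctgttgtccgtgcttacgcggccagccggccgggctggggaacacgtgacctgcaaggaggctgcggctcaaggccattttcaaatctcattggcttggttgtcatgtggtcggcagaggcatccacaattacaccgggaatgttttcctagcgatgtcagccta
Hoxd4 at chr2:74721728-74722027: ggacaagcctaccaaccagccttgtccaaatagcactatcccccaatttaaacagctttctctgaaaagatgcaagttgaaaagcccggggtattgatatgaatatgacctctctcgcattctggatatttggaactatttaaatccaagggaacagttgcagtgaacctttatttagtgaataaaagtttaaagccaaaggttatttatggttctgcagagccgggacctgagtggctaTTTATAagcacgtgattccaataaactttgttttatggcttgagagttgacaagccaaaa
The window of Hoxd4 holds a TATA match and no other, both windows of Hoxd11 hold TAATTA, the second also a Pbx-Hox match, and the windows of Hoxd12 and Hoxd10 hold none of the motifs. The 2 Hoxd11 windows hold 4 and 25 CpG dinucleotides, that of Hoxd12 holds 13, that of Hoxd10 holds 22 and that of Hoxd4 holds 4. The table of start regions covers 22 of the 38 Hox genes with 24 windows. TGATNNAT is found in 4 of the 24 Hox windows and in 8.85% of all 32851 windows, TGACAG in 2 and in 19.2%, TATAAA in 4 and in 13.6%, and TAATTA in 2 and in 5.29%. The median number of CpG dinucleotides was 14.5 in the Hox windows and 7 in all windows. It was 14.5 in the 10 windows of genes called higher, 9 in the 6 windows of genes above background but not called, and 22.5 in the 8 windows of genes above background on no array. The ranges, 4 to 22, 4 to 45 and 4 to 37 in the same order, overlap widely. A match is a run of letters and was not tested as a binding site.

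In the Hoxb cluster all 9 tested probes were above 0 (66.5% of all tested probes) and 5 of them, for 4 neighbouring genes, rose (31.0%). However, 3 of the 9 had passed the filter through tumors alone. Hoxb3, which acts in the hindbrain and in organs of the neck, has 3 probes. The brightest, ILMN_3071262, read 60.2, 42, 81.1 and 158.5 in tumors, against 4.1, 6, 3.7 and 10.4 in controls, none of which was above background. Tumors were at least 5.99-fold higher (limma adjusted p = 0.00703 with no filter). A second Hoxb3 probe, ILMN_3150064, read 24.6, 23.3, 37.1 and 76 in tumors, of which 3 were above background, against -2.1, -0.5, 5.3 and 7.2 in controls (at least 2.83-fold, limma adjusted p = 0.0151 with no filter). The dimmest, ILMN_1232276, changed by 0.72 ± 0.27 and did not pass (limma adjusted p = 0.0978 with no filter). With the filter its change was 0.88 without tumor 1 and 0.87 without tumor 2. It had passed that filter through tumors alone, so its calls in such fits give no support by themselves.

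Hoxb4, known for expanding blood stem cells, had 331, 258, 331 and 768.5 in tumors, against 48.3, 179, 51 and 151 in controls. Tumor 4 was far above the other tumors, and controls 2 and 4 were above controls 1 and 3. Hoxb4 rose by 1.88 ± 0.46 log2 units, or 3.68-fold (limma adjusted p = 0.0114). Hoxb5, which positions the shoulder girdle, had 535, 534, 911 and 1839 in tumors, against 175, 432, 169.7 and 273 in controls. The order of arrays was alike, with tumor 4 on top and no overlap. Hoxb5 rose by 1.71 ± 0.44 log2 units, or 3.26-fold (limma adjusted p = 0.0142). Hoxb6, a gene of the trunk mesoderm, averaged 318 ± 99.1 in tumors and 156 ± 58.0 (SD, n = 4) in controls. Tumor 2 at 187 lay below control 2 at 235.5, so the groups overlap. The rise of 0.96 ± 0.31 (limma adjusted p = 0.0327) was lost in 13 of the 23 alternatives, among them all 4 other normalizations (0.54 to 0.79, adjusted p = 0.0861 to 0.160) and the omission of any 1 array except tumor 2 and control 2 (change 0.79 to 0.98, adjusted p = 0.0537 to 0.0930).

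Hoxb7, the gene of the ureteric bud and collecting duct, had 1033, 1029, 1699 and 1654 in tumors, against 715, 797, 928 and 963 in controls. Every tumor was above every control by a narrow margin, and the change of 0.63 ± 0.23 did not pass (limma adjusted p = 0.0546). It passed without tumor 1 (0.74, adjusted p = 0.0284), without tumor 2 (0.75, adjusted p = 0.0387) and with normexp correction and quantile normalization (0.64, adjusted p = 0.0430), and in 9 of the 23 alternatives in all. Beside it, the water channels Aqp2 and Aqp3 and the enzyme Hsd11b2, markers of the mature collecting duct, fell by 2.44, 1.74 and 1.86 log2 units, while Ret, the receptor for Gdnf at ureteric bud tips, was higher in tumors by at least 3.72-fold but had passed the filter through tumors alone (limma adjusted p = 0.0666 with no filter; with the filter 0.0520 with cyclic loess). With no filter the 3 falls missed the threshold too (adjusted p = 0.0565, 0.0819 and 0.0736). In this list of collecting duct and ureteric lineage markers 3 of 5 tested genes fell and 1 rose (12.2% and 31.9% of named genes). Gata3 went the other way from the 3 falls, with a mean of 237 in tumors and 105 in controls, and did not pass (1.06 ± 0.42, limma adjusted p = 0.0685). Wnt11 was under background on all arrays. The part of these cells in the level of Hoxb7 was not tested. Hoxb2, a gene of the hindbrain, had 353, 222, 591.5 and 718 in tumors, against 223.5, 238, 232 and 198 in controls, with tumor 2 inside the range of the controls. Its change was 0.90 ± 0.33 (limma adjusted p = 0.056) and passed without tumor 2 (1.20, adjusted p = 0.00956). Hoxb9, a gene of the thorax, averaged 38.5 ± 26.1 in tumors and 13.7 ± 7.64 (SD, n = 4) in controls, was above background on 2 arrays of each group, and changed by 0.79 ± 0.36 (limma adjusted p = 0.11; 1.06 and 0.0345 without tumor 2). Hoxb1, Hoxb8 and Hoxb13 were under background on all arrays.

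**Figure D2:**
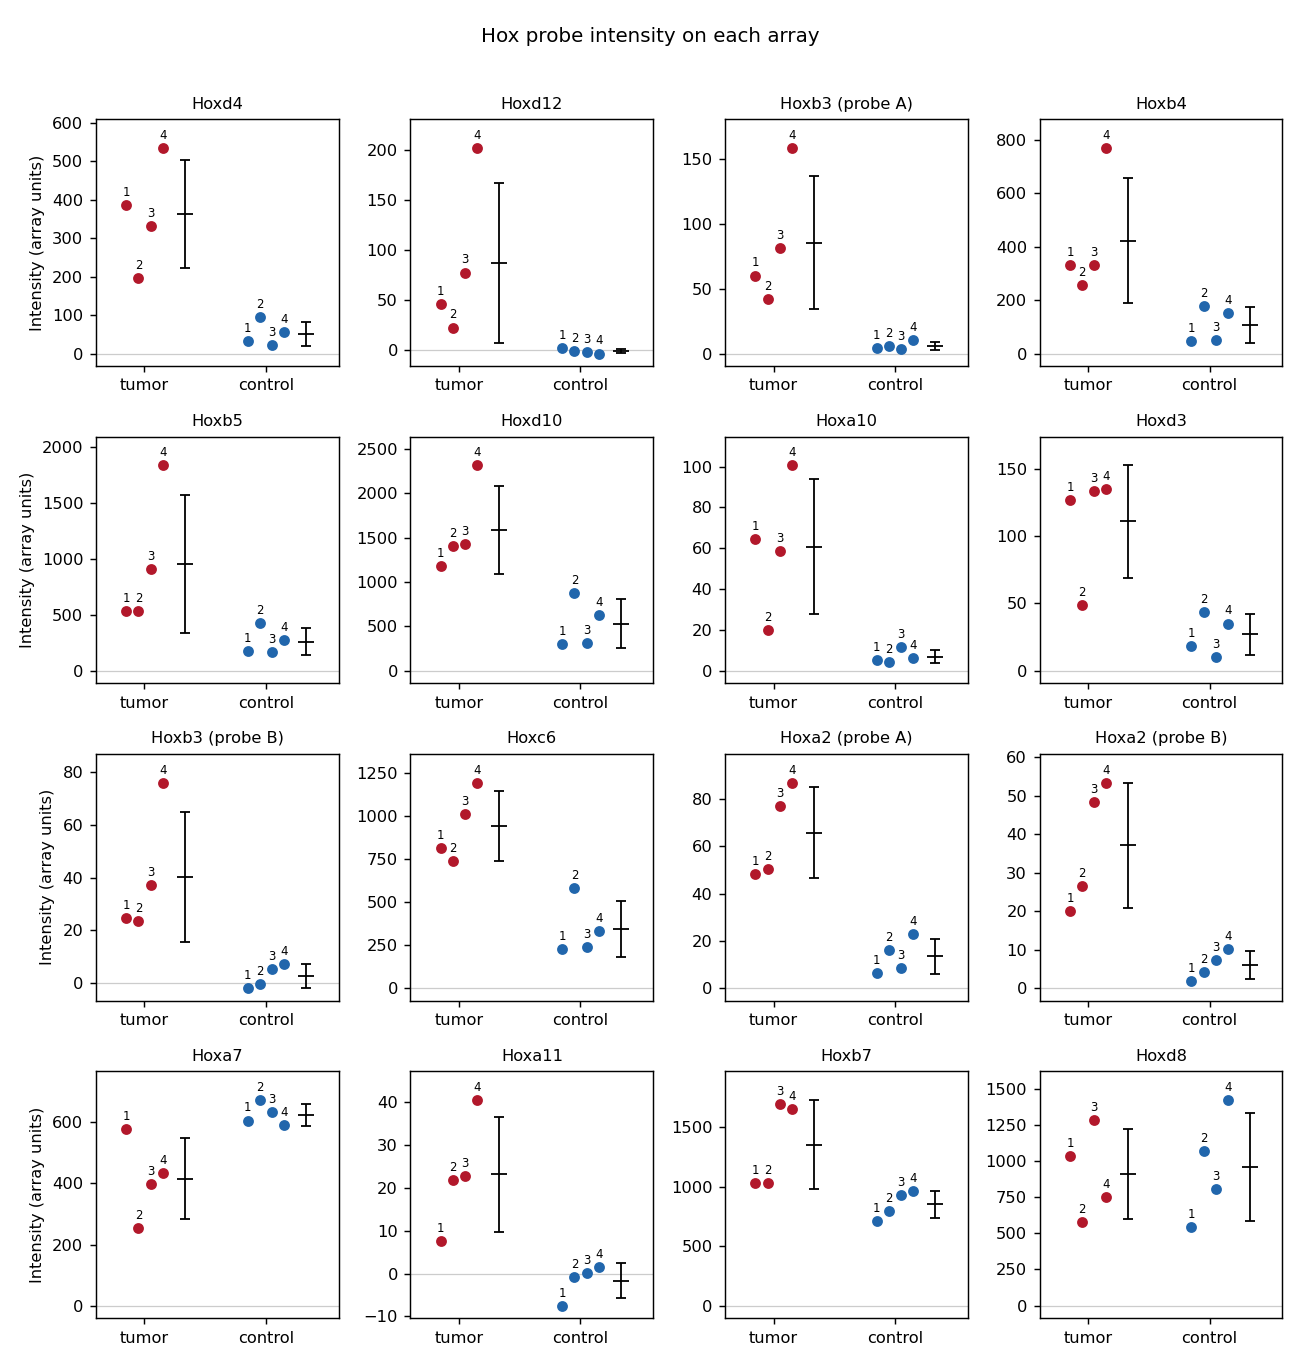
Intensity (array units, linear axis) of the 12 Hox probes with the largest called change and no overlap between groups, and of Hoxa7, Hoxa11, Hoxb7 and Hoxd8, on each array. Points are single arrays with the replicate number above them, bars give the mean and SD (n = 4 a group), and the grey line is 0. Tumor 4 is the highest tumor in every panel except those of Hoxa7, Hoxb7 and Hoxd8, and Hoxa7 is the panel in which all tumors lie below all controls.

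The Hoxa cluster was mixed, with 4 of 10 tested probes (40%) called higher, for Hoxa2, Hoxa10 and Hoxa11, where 31.0% of all tested probes were. Of the 4, the dimmer probe for Hoxa2 and that for Hoxa11 had passed the filter through tumors alone. Hoxa2, which patterns the second pharyngeal arch, has 2 probes that moved together. The brighter, ILMN_2874270, read 48.4, 50.4, 77.1 and 86.8 in tumors, against 6.3, 16, 8.7 and 22.8 in controls. It rose by 1.476 ± 0.25 log2 units (limma adjusted p = 0.00247). The dimmer, ILMN_2618302, read 20.1, 26.5, 48.5 and 53.3 in tumors, of which 3 were above background, against 2, 4.3, 7.3 and 10.3 in controls, and was at least 2.72-fold higher (limma adjusted p = 0.0143 with no filter). Hoxa10, which acts in the lumbar spine, the uterus and kidney stroma, read 64.3, 19.8, 58.6 and 100.5 in tumors, against 5.3, 4.5, 11.6 and 6.4 in controls. All tumors were above background and no control was, a difference of at least 4.15-fold (limma adjusted p = 0.00546). A second probe for Hoxa10 was under background on all arrays.

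Hoxa7, a gene of the trunk, had 577, 254, 399 and 434 in tumors, against 606, 673, 633 and 590.4 in controls. The controls lay close together, and all tumors were below them, with tumor 1 the nearest. The change was -0.62 ± 0.24 log2 units, or 1.54-fold lower in tumors, and did not pass (limma adjusted p = 0.0652). It was called lower without tumor 1 (-0.79, adjusted p = 0.0165), on the arrays of 4 months alone (-0.81, adjusted p = 0.0349), with array weights (-0.62, adjusted p = 0.00455) and under each of the 4 other normalizations (-0.89 to -0.71, adjusted p = 0.0172 to 0.0354). Hoxa5, which acts in lung and mammary gland, had 418, 422, 579 and 484 in tumors, against 181, 458, 242 and 406 in controls. Control 2 lay within the range of the tumors, and the change of 0.62 ± 0.30 did not pass (limma adjusted p = 0.121). Hoxa9, known from leukemia, has 2 bright probes that gave 0.46 and 0.46 (limma adjusted p = 0.417 and 0.438), with tumor 2 low, at 55.4 and 49.6. The remaining probe was under background on all arrays. Hoxa4, which patterns the neck, had 11.1, 21.9, 18 and 41.1 in tumors, against 22.7, 22.3, 19.9 and 62.3 in controls. The groups overlapped, with 1 array of each group well above the rest, and it did not pass (change -0.27, limma adjusted p = 0.527).

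In the Hoxc cluster 3 of 5 tested probes rose, where 31.0% of all tested probes did. Hoxc6, a gene of the thorax and mammary gland, had 815, 739, 1009 and 1192 in tumors, against 225, 579.8, 238 and 331 in controls. The groups did not overlap, and control 2 was again the highest control. Hoxc6 rose by 1.484 ± 0.31 log2 units, or 2.80-fold (limma adjusted p = 0.00588). Hoxc9, which sets the identity of thoracic motor neurons, averaged 602 ± 308 in tumors and 228.5 ± 35.0 (SD, n = 4) in controls, without overlap. Its change of 1.21 ± 0.35 (limma adjusted p = 0.0219) lost the call without tumor 3, control 1 or control 3 (1.11 to 1.19, adjusted p = 0.0536 to 0.0621), on the arrays of 4 months alone (1.28), with no filter (adjusted p = 0.0579) and under each of the 4 other normalizations (0.87 to 1.03, adjusted p = 0.0535 to 0.0652). Hoxc10, a gene of lumbar motor neurons and the last of the stromal paralogs, has 2 probes above background on all arrays. ILMN_2836885 read 256, 225, 410.5 and 622 in tumors, against 144, 125, 152 and 147 in controls, and rose by 1.21 ± 0.30 (limma adjusted p = 0.0122; 0.76 and 0.0507 with normexp correction). ILMN_2836888 read 244, 293, 623.5 and 957 in tumors, against 217, 195, 209 and 212 in controls, and its 1.08 ± 0.39 did not pass (limma adjusted p = 0.0523), but did without tumor 1 (1.36, adjusted p = 0.0126) or tumor 2 (1.28, adjusted p = 0.0392). Both show tumors 3 and 4 well above tumors 1 and 2 and the 4 controls close together. Hoxc4, which acts in B cells, was above background in 2 controls and in no tumor (change -0.19 ± 0.21, limma adjusted p = 0.497).

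Among the paralogs with a known part in kidney formation, 1 of the 3 numbered 11 was seen. Hoxa11 read 7.5, 21.9, 22.7 and 40.5 in tumors, of which tumors 2 to 4 were above background, against -7.5, -0.9, 0.2 and 1.6 in controls. It was 1.56-fold higher in tumors (limma adjusted p = 0.0172 with no filter, fitted change 1.18 ± 0.26). That fold takes each control at the higher of its signal and its limit, and tumor 1 at its signal under the limit. It is therefore no strict bound. Both probes for Hoxc11 and the probe for Hoxd11 were under background on all 8 arrays, with at most 4.3 for Hoxc11 and 7.5 for Hoxd11. For the paralogs numbered 10, Hoxa10, Hoxc10 and Hoxd10, each has 1 called probe. Of the genes numbered 13, which act at the tail end of the body, Hoxa13 alone was above background, through 1 of its 3 probes, with 50.6, 44.8, 26.6 and 34.7 in tumors and 53.7, 25.9, 35.4 and 33.8 in controls. Its change was 0.06 ± 0.22 (limma adjusted p = 0.858), and the sign turned in 8 of the 23 alternatives.

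By paralog number and with no filter, 5 of 12 probes for paralogs 1 to 3 were called higher, 4 of 15 for paralogs 4 to 8, 3 of 11 for paralogs 9 and 10 and 2 of 12 for paralogs 11 to 13, where 16.6% of all probes were. Among probes that passed the filter the counts were 5 of 7, 5 of 11, 5 of 9 and 2 of 3 in the same order (31.0% of all tested probes), but 4 of the 7 and 2 of the 3 had passed through tumors alone, and none of the 11 or the 9. The differences between these shares were not tested. The ranges of the changes of tested probes were 0.72 to 2.09, -0.62 to 2.52, 0.46 to 1.65 and 0.06 to 2.35 log2 units in the same order. The paralogs numbered 7 and 8 had no called probe. By cluster, the tested probes ranged from -0.62 to 1.63 in Hoxa, 0.63 to 2.09 in Hoxb, -0.19 to 1.484 in Hoxc and -0.05 to 2.52 in Hoxd.

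The tumors differed among themselves in a repeated order. Tumor 4 was the highest tumor for all 17 called Hox probes and for 24 of the 30 tested (80%), where it was highest for 28.4% of all tested probes. Tumor 2 was the lowest tumor for 19 of the 30 (63.3%), where it was lowest for 35.6% of all tested probes. The summed nephron progenitor markers were also highest in tumor 4 (2652) and lowest in tumor 2 (705), with 1467 in tumor 1 and 1640 in tumor 3. The summed stromal markers were highest in tumor 2 (19200), with 7611, 10361 and 8074 in tumors 1, 3 and 4. Probes share an array and are not independent, so these shares are descriptions, and the part of cell content in the order was not tested. Among the controls, numbers 2 and 4 were the highest pair for 14 of the 30 tested Hox probes (46.7%) and for 11 of the 17 called (64.7%). They were the highest pair for 38.7% of all tested probes.

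Age was unequal within each group, with 1 animal of 5 weeks and 3 of 4 months. On the arrays of 4 months alone 15 Hox probes were called higher and 1 lower of 31 tested (28.1% and 12.5% of all tested probes). With age as a covariate 20 were called higher of 30 (32.6%). No tested Hox probe was called for a tumor effect that differed with age (limma interaction, 0 of 30 at an adjusted p under 0.05, where 1.52% of all tested probes were called, and 0 at an unadjusted p under 0.05, where 10.4% were), a test that rests on a single pair at 5 weeks. With no filter 1 dim Hox probe, for Hoxb1, was called, with 12.2 in tumor 1 and values below 0 on the other 7 arrays, all under background.

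Hox proteins bind DNA with cofactors of the TALE class of homeodomain proteins, the Pbx, Meis and Pknox families. Of 7 such genes with a probe 6 rose and none fell (each gene by its brightest tested probe), where 31.9% of all named genes rose and 12.2% fell by the same rule. With no filter 6 were called higher as well and none lower (18.0% and 6.07% of all named genes). Meis1, which binds with posterior Hox proteins, had 361, 447, 755 and 1723 in tumors, against 54.2, 220.2, 84.2 and 156.5 in controls. As for Hoxb4 and Hoxb5, tumor 4 was highest and controls 2 and 4 were above controls 1 and 3. Meis1 rose by 2.42 ± 0.53 log2 units (limma adjusted p = 0.0073). Meis2, Pknox2 and Pbx2 rose by 2.12, 2.21 and 2.24 log2 units, Pbx3 by 1.14 and Meis3 by 0.82. Pknox2 has 5 probes, of which the other 4 read at most 17.1 on any array, and Pknox1 did not pass (0.23 ± 0.19, limma adjusted p = 0.351). Its sign, and the call for Meis3 (0.40, adjusted p = 0.135 with cyclic loess), depended on the scaling, and 5 of 7 rose with cyclic loess (18.6% of named genes). Of the partners and targets of the Hox11 group in kidney, 5 of 7 rose (31.9% of named genes). Of these 5, Gdnf, Six2, Eya1 and Osr1 had passed the filter through tumors alone, and with no filter 4 of the 7 were called higher (18.0%), without Osr1 (adjusted p = 0.0771). Gdnf, the signal that draws out the ureteric bud, had 415, 192, 442 and 843 in tumors, against -1.7, 5.9, 5.1 and -2.4 in controls, at least 32.9-fold higher (limma adjusted p = 0.00132 with no filter), while a second Gdnf probe was under background on all arrays. Eya1, which joins the Hox11 proteins in a complex, and Six2 were at least 5.69-fold and 9.90-fold higher. Pax2, also of that complex, changed by 1.05 ± 0.38 (limma adjusted p = 0.0527) and Sall1 by 0.69 ± 0.36 (limma adjusted p = 0.148), and neither passed. Osr1, at least 3.67-fold higher, lost its call with quantile normalization (1.39, adjusted p = 0.0623), cyclic loess (1.24, adjusted p = 0.0766) and normexp with quantile normalization (0.67, adjusted p = 0.122). With cyclic loess 4 of 7 were left (18.6%). Wt1, which acts in nephron progenitors and podocytes, rose by 4.16 ± 0.27 log2 units (limma adjusted p = 4.33e-05). Six2, Eya1 and Osr1 are also in the list of nephron progenitor markers.

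**Figure D3:**
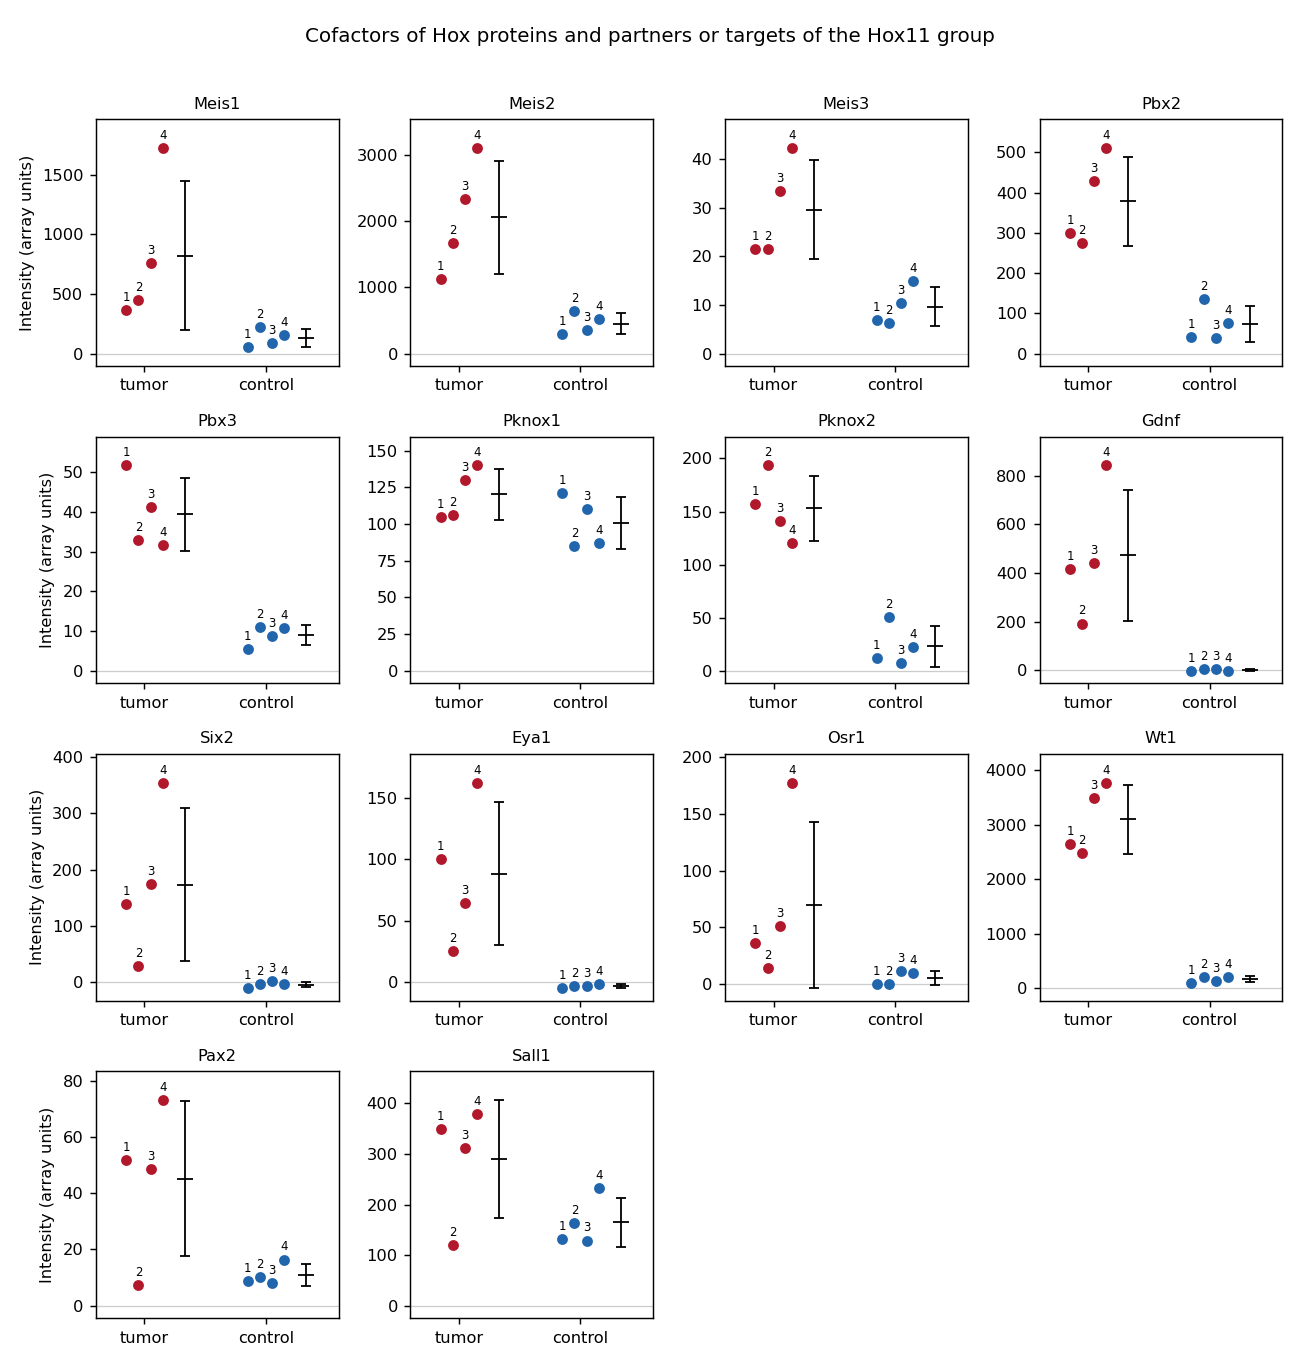
Intensity (array units, linear axis) of TALE cofactors (Meis, Pbx and Pknox genes) and of partners or targets of the Hox11 group on each array, with replicate numbers above the points and bars for mean and SD (n = 4 a group). Pknox1, with 105 to 140 in tumors and 85.3 to 121 in controls, is the cofactor whose groups overlap, and Gdnf, Six2, Eya1 and Osr1 are at or under background in all controls.

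Chromatin proteins of the Polycomb group hold silent Hox genes off, and trithorax proteins and demethylases keep active ones on. Of 15 tested regulators of Hox expression 8 rose and 0 fell on the authors' scale (31.9% and 12.2% of named genes), with a median change of 0.69 against 0.33 for all tested probes. With cyclic loess 6 rose and 2 fell (18.6% and 18.7%), with a median of 0.42 against -0.03. The calls for Bmi1 and Rnf2 were lost under each of the 4 other normalizations, and that for Suz12 with median scaling. With no filter 6 of the 17 regulators with a probe were called higher (18.0%), without Bmi1 (adjusted p = 0.081) and Suz12 (adjusted p = 0.0511). Ezh2, the methyltransferase of Polycomb repressive complex 2, had 302, 132, 673 and 513 in tumors, against 22.4, 27.5, 47.4 and 35.6 in controls, and rose by 2.91 ± 0.44 log2 units (limma adjusted p = 0.00161). Eed and Suz12, the other core subunits of that complex, rose by 1.17 and 0.69, and Cbx2, Bmi1 and Rnf2 of complex 1 by 1.45, 1.01 and 0.54. The demethylases Kdm6a and Kdm6b, which remove the mark that Ezh2 sets, rose by 1.64 and 1.12. Kdm6a lies on the X chromosome and escapes X inactivation. It read 827, 1336, 1338 and 1593 in tumors, against 206, 769.8, 314 and 444 in controls, and control 2, the control with Kdm5d under background, was the highest control. The part of sex in its change was not tested. Men1, of the complex that sets the active mark, changed by 0.18 ± 0.19 (limma adjusted p = 0.486), and Cbx7, of Polycomb complex 1, by -0.78 ± 0.35 (limma adjusted p = 0.0973), which was called lower with cyclic loess (-1.31, adjusted p = 0.0151). Repressors and activators of the clusters were both among the genes that rose.

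Genes that lie next to the clusters were mixed. Of 10 with a probe, 4 (Ttll6, Skap1, Evx2 and Lnpk) were above background on no array (34.4% of named genes), and of 6 tested 2 rose and 1 fell (31.9% and 12.2%), with a median change of -0.06 against 0.33 for all tested probes. Mtx2, beyond the 3′ end of Hoxd, had 32.6, 15, 41.2 and 41.3 in tumors, against 1, 9.1, 7.7 and 13 in controls, and rose by 1.02 ± 0.26 (limma adjusted p = 0.0135). Smug1, a DNA repair enzyme near Hoxc4, rose by 0.78 ± 0.20 (limma adjusted p = 0.0129). Hibadh, an enzyme of valine breakdown beyond the 5′ end of Hoxa, had 7686, 2688, 3264 and 3382 in tumors, against 13217, 11166, 12789 and 8796 in controls, and fell by 1.54 ± 0.33 (limma adjusted p = 0.00632). With cyclic loess the fall of Hibadh was the single call of this list, since Mtx2 (0.61, adjusted p = 0.0652) and Smug1 (0.42, adjusted p = 0.0812) no longer passed. Skap2, at the 3′ side of Hoxa, changed by -0.26 ± 0.27 (limma adjusted p = 0.474). Evx1 at the 5′ end of Hoxa changed by -0.15 ± 0.23 (limma adjusted p = 0.622). Of 13 homeobox genes of the same class outside the clusters, 8 were above background on no array (34.4% of named genes), and 3 of the 5 tested rose (31.9%). Meox2 and Gbx2 had passed the filter through tumors alone, and with no filter 2 of the 13 were called higher (18.0%). Meox2, a gene of mesoderm and muscle, had 162.5, 62.4, 177 and 551 in tumors, against -5.3, 10.9, -5.4 and -1.9 in controls, at least 14.1-fold higher (limma adjusted p = 0.00854 with no filter). Its relative Meox1 rose by 2.48 ± 0.26 log2 units, and Gbx2, above background in 2 tumors, was at least 1.17-fold higher but lost its call under each of the 4 other normalizations and with no filter (adjusted p = 0.0917).

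Of the 17 called Hox probes, 13 were called in every alternative in which they were tested, and the other 4 are Hoxb6, Hoxc9, Hoxd9 and 1 probe for Hoxc10. The share of all called probes on the array that kept their call was not counted, so 13 of 17 is a description only. Those 13 include the called probes for Hoxb3, Hoxa11 and Hoxd12 and the dimmer one for Hoxa2, which had passed the filter through tumors alone. For these, calls in alternatives that keep the filter give no support by themselves. Of the 13 tested probes that did not pass, 7 passed under at least 1 alternative: those for Hoxa5, Hoxa7, Hoxb2, Hoxb7 and Hoxb9 and 1 each for Hoxb3 and Hoxc10. Hoxa7 was the single one of these on the lower side. The Hoxb3 probe had passed the filter through tumors alone and was not called with no filter, so its calls give no support by themselves. The share of all uncalled probes on the array that gained a call was not counted.

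**Figure D4:**
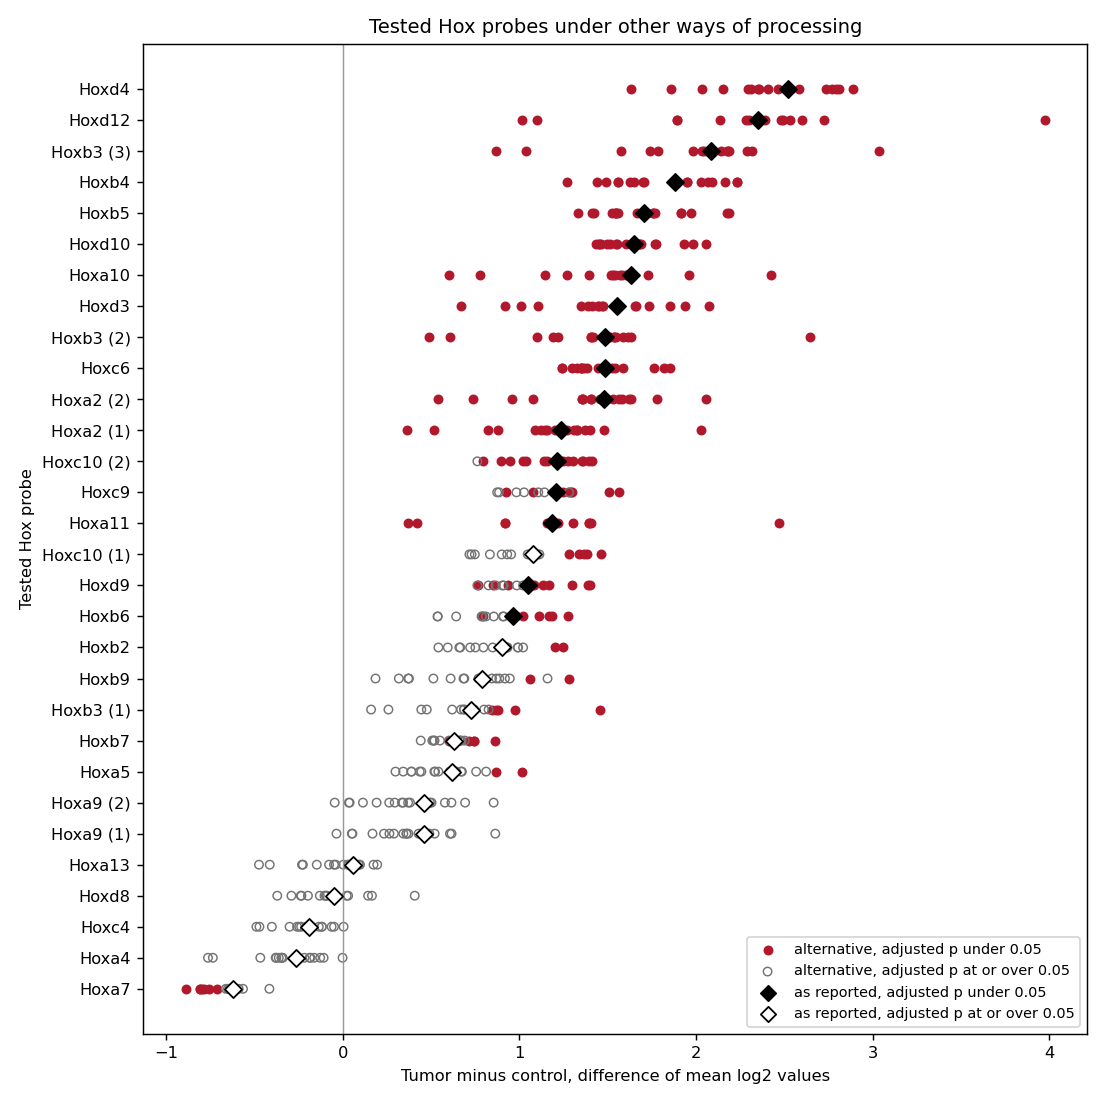
Difference of mean log2 values, tumors minus controls, for the 30 tested Hox probes (rows, ordered by the reported value). Diamonds give the reported value and circles the alternatives, up to 23 for each probe, filled where the adjusted p was under 0.05, and numbers in brackets tell probes of 1 gene apart. For the 6 probes that passed the filter through tumors alone, filled marks from fits with the filter give no support by themselves. Hoxd4 lies between 1.63 and 2.89 under the alternatives and Hoxa7 between -0.89 and -0.42.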

How the data were processed

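The deposited series values were used, which are bead-array intensities of 25697 probes on a linear scale. The authors had subtracted background and scaled the arrays, as the values show: 20.2% to 28.4% of each array lie below 0 and each array averages 274. The software is not named in the sources used here. A second table, of 16 value columns that carry no sample's name, was left aside. Probes were named through the platform annotation (23978 with 1 symbol, 0 with several, 1719 with none).

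Negative values were set to 0 and log2(value + 16) was taken. Probes with a mean under the 40th percentile were removed, and each remaining probe was fitted by itself in R 4.3.3 with lmFit and eBayes of limma 3.58.1, in two-sided tests without covariates. P-values were adjusted by Benjamini-Hochberg over 15418 probes. The fit was tested on simulated data. Noise was 1.4826 times the median size of an array's values below 0, and the background limit 3 times that. "At least" folds compare mean log2 intensities without an added value. They take each control at the higher of its signal and its limit, and each tumor at its signal. Where a tumor is under its limit they are no strict bound, as for Osr1, Ret, Gbx2, the dimmer tested Hoxa2 probe and the Hoxb3 probe ILMN_3150064. Replicates are biological per the labels.

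Per-array values are given for the 12 largest called changes without overlap, called falls, paralogs numbered 11, the 4 probes brightest in controls, and 1 rise and 1 fall of each other list; further probes were chosen after their values were seen. The fit with no filter was extended to the lists after the data were seen. The members, lists and rules were chosen with earlier results of these data known.

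Alternatives were 4 other normalizations (quantile, cyclic loess, scaling to the same median, normexp with quantile), 4 or 64 added, 2 other filters, 1 value per gene (2 ways), trend with robust prior, array weights, age, replicate block, 4 months alone and leaving out arrays.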

Additional observations from a re-analysis of the deposited data

Results flagged for a closer look

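In 3 of 60 groups of 4 arrays 1 sample lay far from the other 3, about the number that chance gives at 1 in 20. Hoxa4 read 62.3 in control 4, while the other controls read 22.7, 22.3 and 19.9. Hoxb4 read 768.5 in tumor 4, while the other tumors read 331, 258 and 331. Hoxd3 read 48.7 in tumor 2, while the other tumors read 126, 133 and 135. Without tumor 4 the change of Hoxb4 was 1.56 (limma adjusted p = 0.0295), and without tumor 2 that of Hoxd3 was 1.85 (limma adjusted p = 0.00329).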

How the results depend on the processing

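The number of Hox probes higher in tumors stayed within 1.5 times the reported 17 under every alternative fitted (14 to 23, the highest with array weights), and 14 to 21 when 1 array was left out. The number tested and the share of all tested probes called higher moved as well. They were 17 of 30 as reported (31.0%), 14 of 50 with no filter (16.6%), 14 of 30 with cyclic loess (17.1%) and 23 of 30 with array weights (46.6%). The number lower was 0, but 1 (Hoxa7) with quantile normalization, cyclic loess, median scaling, normexp with quantile normalization, array weights and the arrays of 4 months alone, and without tumor 1 and control 2 together (this choice was made after the data were seen). It was 0 to 1 when 1 array was left out. The median change of the tested Hox probes, reported as 1.13, was 0.86 with quantile normalization, 0.78 with cyclic loess, 0.96 with median scaling, 0.54 with normexp, 1.25 with 4 added, 0.76 with 64 added, 0.36 with no filter, 1.40 with array weights, 1.28 at 4 months alone, 1.32 without tumor 1 and control 2, and 0.92 to 1.32 when 1 array was left out. With no filter all 50 probes enter, dim ones included. For the other differences the cause was not tested. The split of called probes over the whole array was 72.9% higher as reported, 53.4% with quantile normalization, 47.9% with cyclic loess, 59.2% with median scaling and 53.7% with normexp. Signs turned only for probes that did not pass: Hoxa13 was -0.41 (quantile), -0.47 (cyclic loess), -0.078 (median scaling), -0.23 (normexp), -0.23 (array weights), -0.15 (without tumor 1 and control 2) and -0.050 to 0.19 when 1 array was left out, below 0 without tumor 1 or control 2. Hoxd8 was 0.41 with array weights and -0.29 to 0.16 when 1 array was left out, above 0 without tumor 2, tumor 4, control 2 or control 4. Both Hoxa9 probes turned with cyclic loess (-0.036 and -0.046), and Hoxc4 was 0.0044 without tumor 1 and control 2. The count with an age interaction was 0, and 1 (Hoxb1, under background) with no filter. Deviations of same-numbered tumors and controls correlated by 0.21, 0.22, 0.13 and 0.07, which does not establish pairs. With the replicate number as a block 18 probes were higher and 0 lower (31.9% and 11.7% of all tested probes), the call of Hoxb6 was lost and Hoxb7 and 1 Hoxb3 probe gained one. That Hoxb3 probe had passed the filter through tumors alone, so its call gives no support by itself. Above background on all tumors were 26 and 21 probes at limits of 2 and 5 times the noise in place of 23, and on all controls 20 and 18 in place of 19. Dim signal limits what can be said of the 20 Hox probes above background on no array.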
